A study of Mus musculus with 8 samples.

Results

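The ErbB receptors and the neuregulins were followed in the ribosome-associated RNA of parvalbumin-expressing (PV+) interneurons of mouse primary somatosensory cortex (S1). The members are the 4 receptor genes *Egfr*, *Erbb2*, *Erbb3* and *Erbb4* and the 4 neuregulin genes *Nrg1*, *Nrg2*, *Nrg3* and *Nrg4*, taken by gene name from the deposited tables, 8 of the 45706 genes listed. All 8 passed the filter on low counts, which left 17495 genes for testing. The study asked which ribosome-bound transcripts of PV+ interneurons differ after their activity has been raised for 48 h.

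Both groups had the genotype PvalbFlp/+;Neurod6Cre/+ and received the same adeno-associated virus in S1 as newborn pups. The virus carried HA-tagged RPL10A, a ribosomal protein used to pull down ribosomes with their RNA, and myc-tagged hM3Dq, a designed receptor that raises neuronal firing when its ligand clozapine-N-oxide (CNO) is given. Flp recombinase, made where *Pvalb* is active, switched the construct on, and Cre, made in *Neurod6* lineage pyramidal cells, removed it. The CNO group had 4 samples from mice given CNO at 1 mg/kg in 5 injections over about 48 h, and the vehicle group had 4 samples from mice given vehicle on the same schedule. Per the labels the mice were between postnatal days 42 and 70. Each sample pooled the infected cortex of 4 brains, so the values are averages over animals, and no group received CNO without hM3Dq.

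ErbB receptors are receptor tyrosine kinases that pair with one another after binding ligands of the epidermal growth factor (EGF) family. Neuregulins are ligands of ErbB3 and ErbB4, made as membrane-bound precursors that proteases cut. In cortex ErbB4 is known mainly from interneurons, including PV+ cells, where it helps form the excitatory synapses these cells receive, and neuregulins are made by many neurons.

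Positions are those of GENCODE mouse release 21 on GRCm38, the build of the deposited tables. *Erbb4* lies on the minus strand at chr1:68032186-69108059 and has 5 annotated transcripts between 240 and 12037 nucleotides long. *Nrg3* lies on the minus strand at chr14:38368952-39473088 with 4 transcripts of 2137 to 4011 nucleotides. *Egfr*, chr11:16752203-16918158, and *Erbb2*, chr11:98412470-98437716, are on the plus strand of the same chromosome. *Erbb3* is at chr10:128567523-128589652, *Nrg1* at chr8:31814551-32884029 and *Nrg4* at chr9:55220222-55326844, all on the minus strand, as is *Nrg2*. Exons of *Erbb2*, *Nrg1* and *Nrg4* overlap exons of genes on the other strand, *Mien1* for *Erbb2*, *Gm26578* for *Nrg1*, and *Fbxo22* and *Gm15625* for *Nrg4*. Reads in those stretches cannot be assigned to a strand where the library does not keep it, so the values of these 3 genes are less certain. *Erbb3* has 1 annotated transcript and *Nrg1* has 18.

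The sequences shown are the 250 bases before the start of *Erbb4*, *Nrg3* and *Erbb2*, the receptor and the ligand with the most RNA and the receptor whose level ran most closely against that of *Erbb4* (values further on). They are from RefSeq on GRCm38.p6, at chr1:69108060-69108309 (minus strand), chr14:39473089-39473338 (minus strand) and chr11:98412234-98412483 (plus strand), written 5′ to 3′ with capitals where a searched motif matched.
Erbb4: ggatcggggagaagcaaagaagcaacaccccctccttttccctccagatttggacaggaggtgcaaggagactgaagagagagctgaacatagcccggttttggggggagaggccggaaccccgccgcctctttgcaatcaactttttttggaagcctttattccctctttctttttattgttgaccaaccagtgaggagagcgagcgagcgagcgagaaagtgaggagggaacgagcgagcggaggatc
Nrg3: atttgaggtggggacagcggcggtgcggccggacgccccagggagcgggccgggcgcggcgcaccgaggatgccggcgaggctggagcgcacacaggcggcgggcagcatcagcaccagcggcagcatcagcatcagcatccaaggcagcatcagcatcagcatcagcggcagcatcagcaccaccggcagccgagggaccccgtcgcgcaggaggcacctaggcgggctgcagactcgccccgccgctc
Erbb2: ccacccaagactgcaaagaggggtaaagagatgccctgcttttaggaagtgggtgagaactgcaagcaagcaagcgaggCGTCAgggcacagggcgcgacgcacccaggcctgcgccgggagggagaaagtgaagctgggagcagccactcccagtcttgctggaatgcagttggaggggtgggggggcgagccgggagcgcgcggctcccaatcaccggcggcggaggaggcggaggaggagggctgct
The promoter table held 5 of the 8 members, *Egfr* and *Nrg4* being the other two. The motifs, searched on both strands, were the cAMP response element TGACGTCA, its core TGACG, which every full element also contains, the AP-1 motif TGANTCA, the EGR motif GCGNGGGCG, the GC box GGGCGG and the TATA box TATAAA. None of the 6 matched in the windows of *Erbb4*, *Nrg3* or *Nrg4*. *Erbb2* had 1 match, to TGACG, beginning 171 bases before the start, and *Egfr* had 1, to the GC box, 9 bases before it. Over the 32851 windows of the table, the full cAMP response element occurred in 1.55%, its core in 17.8%, AP-1 in 6.75%, EGR in 4.70%, the GC box in 32.7% and the TATA box in 12.4%. The window of *Nrg3* was 72.4% G and C, that of *Erbb2* 66.0% and that of *Erbb4* 54.0%. These matches describe letters only. The end of the *Erbb2* window lies within the first exon that GENCODE annotates. The *Nrg4* window, chr9:55283626-55283875 on the minus strand, lies inside the gene as GENCODE annotates it, so it does not precede the outermost annotated start.

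Each sample had between 44064161 and 49413273 reads on genes. The floor of 3 reads thus lay between 0.0607 and 0.0681 CPM (counts relative to the library total) before normalisation between samples, and covers counting error only. *Fos*, an activity-regulated gene, had 36.9, 72.7, 51.3 and 83.7 TPM in the CNO samples and 18.1, 20.6, 13.8 and 15.7 in the vehicle samples, with no overlap. TPM divides reads by transcript length and sums to the same total in each sample. *Pvalb* was between 820 and 1160 TPM in the CNO samples and between 943 and 1050 in vehicle samples 2 to 4, but 300.1 in vehicle sample 1. The marker index, the average log2 CPM over 12 markers of PV+ interneurons less the average over 12 markers of pyramidal cells, was 1.91, 1.202, 1.70 and 2.37 in CNO samples 1 to 4 and 0.03, 1.31, 1.77 and 1.62 in vehicle samples 1 to 4. Vehicle 1 stood apart with nearly equal levels of both lists, and CNO 2 was the next lowest. No marker of any of the 8 cell type lists was at 0 TPM in any sample, so transcripts that mark other cells were detected throughout.

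All 8 genes were detected in every sample, and 2 of them held most of the members' RNA. The levels are those of the pulldown, which also held pyramidal cell transcripts (mean *Slc17a7* 433 TPM beside *Pvalb* 907 TPM). No unselected RNA of the same tissue was among the 8 samples, so the order was not assigned to PV+ cells. In order of mean TPM over the 8 samples, *Nrg3* was first at 33.9 ± 7.03 (SD, n = 8), followed by *Erbb4* at 20.4 ± 4.88 and *Nrg2* at 11.7 ± 1.62. *Nrg1* at 5.25 ± 1.19 and *Nrg4* at 4.95 ± 0.550 came next, and *Erbb3* at 2.03 ± 0.609, *Egfr* at 1.499 ± 0.280 and *Erbb2* at 1.22 ± 0.358 were lowest. Neighbours in this order were compared within each sample on log2(TPM + 0.1) by a two-sided exact sign-flip permutation test, adjusted over the 7 pairs. The order was taken from the same 8 samples, so these p values are not an independent test of it. The smallest p that 8 samples allow is 0.00781.

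*Nrg3* exceeded *Erbb4* in 8 of 8 samples, by 0.75 ± 0.66 on the log2 scale (SD, n = 8, exact p = 0.00781, adjusted p = 0.0182), although in CNO 3, CNO 4 and vehicle 3 the 2 genes lay close together. They lay farthest apart in vehicle 1 (44.9 and 16.0 TPM) and CNO 2 (41.9 and 11.5 TPM), the samples with the lowest marker indices. The transcript length behind the TPM of *Erbb4* ranged over 1.498-fold between samples (values further on). Its part in the difference between *Nrg3* and *Erbb4* was not tested. *Erbb4* exceeded *Nrg2* by 0.76 ± 0.55 in 7 of 8 samples (exact p = 0.0156, adjusted p = 0.0273), CNO 2 being the exception, and this call was lost (exact adjusted p = 0.0547) in 5 of 8 runs with 1 sample left out, those without CNO 1, CNO 3, vehicle 1, vehicle 3 or vehicle 4. The step from *Nrg2* down to *Nrg1* was 1.17 ± 0.27, seen in 8 of 8 samples (exact adjusted p = 0.0182), and that from *Nrg4* down to *Erbb3* was 1.29 ± 0.37, also in 8 of 8 (exact adjusted p = 0.0182). *Nrg1* and *Nrg4* were not separated beyond their spread (0.05 ± 0.36, 6 of 8, exact adjusted p = 0.734). The same held for *Erbb3* and *Egfr* (0.38 ± 0.39, 7 of 8, exact adjusted p = 0.0547) and for *Egfr* and *Erbb2* (0.30 ± 0.39, 6 of 8, exact adjusted p = 0.0911). *Erbb4* alone made up 68.0 to 86.7% of the summed receptor TPM, and *Nrg3* 58.6 to 62.9% of the summed neuregulin TPM.

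**Figure D1:**
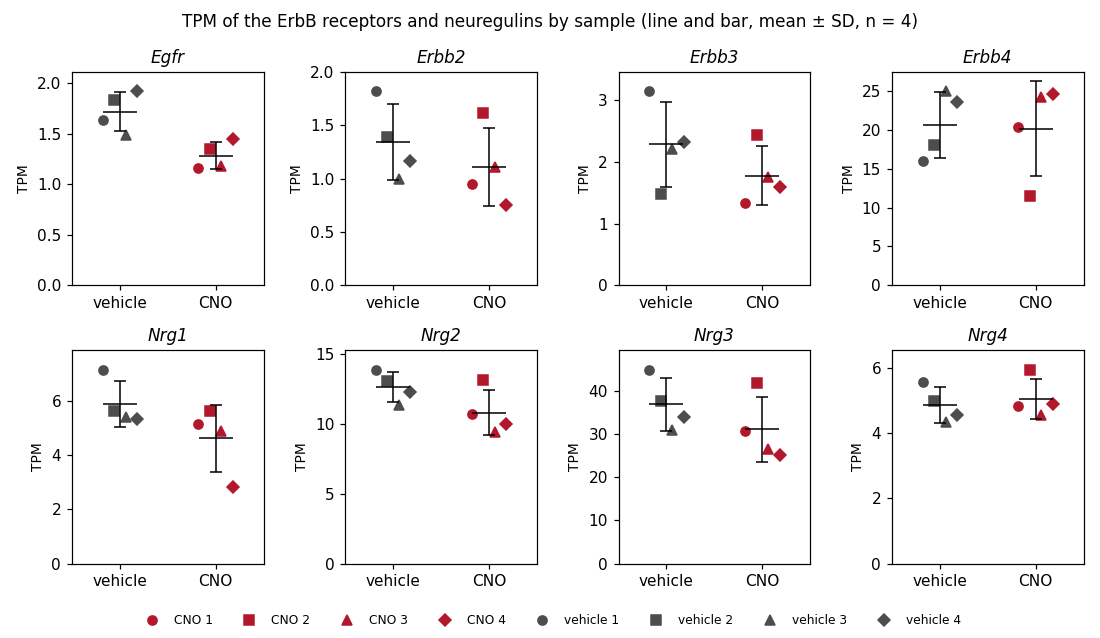
TPM of each gene (y axis, from 0, own scale per panel) in the vehicle and CNO samples, 1 symbol per replicate number, with the mean and SD of 4 samples as a line and bar. The groups overlap for every gene but Egfr, whose CNO samples reached 1.44 TPM and whose vehicle samples began at 1.49.

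None of the 8 genes was called between CNO and vehicle. CNO was compared with vehicle across all 17495 genes by edgeR's quasi-likelihood test with Benjamini-Hochberg adjustment, which called 0 genes at an adjusted p under 0.05 (0.00%), the smallest adjusted p being 0.0520, for *Fos*. At an unadjusted p under 0.05 the same test held 716 genes (4.09%), 252 higher and 464 lower with CNO, and 0 of the 8 members. The likelihood ratio test of edgeR with robust dispersion called 15 genes and DESeq2 called 11, and neither list held a member. The log2 CPM values of the 2 groups did not overlap for 423 genes (2.42%) and for 0 of the 8 members. The TPM values did not overlap for 555 genes (3.17%) and for 1 of the 8, *Egfr*. Of the 8 fitted changes 6 were negative, beside 49.6% of those of all genes tested, whose median log2 fold change was 0.00, and each interval included 0. In such bulk samples, fewer cells of a type and less RNA per cell cannot be told apart.

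*Erbb4*, the neuregulin receptor with an active kinase, had 20.3, 11.5, 24.2 and 24.6 TPM in CNO samples 1 to 4 and 16.0, 18.1, 25.0 and 23.5 TPM in vehicle samples 1 to 4. The groups overlapped almost entirely, with CNO 2 and vehicle 1 lowest in theirs. Mean levels were 20.1 ± 6.09 TPM with CNO and 20.6 ± 4.27 with vehicle (SD, n = 4). On normalised counts the mean was 49.3 ± 14.6 CPM with CNO and 41.8 ± 12.7 with vehicle (SD, n = 4), and the log2 fold change was 0.24 (SE 0.26, edgeR adjusted p = 0.824). Its 95% interval ran from -0.34 to 0.81, so that a fall to 0.792-fold and a rise to 1.75-fold both lay within it. The sign depended on the unit, since on log2(TPM + 1) limma gave -0.07. Without vehicle 1 the log2 fold change was 0.05, and without CNO 2 it was 0.43, so that either sample moved it by more than 1.5 times.

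*Erbb3* encodes a neuregulin-binding receptor with little kinase activity of its own that signals through a partner. It had 1.33, 2.44, 1.76 and 1.59 TPM with CNO and 3.14, 1.47, 2.20 and 2.32 with vehicle. Vehicle 1 was the highest of all 8 samples and vehicle 2 among the lowest, within 1 group. The log2 fold change was -0.30 (SE 0.22, edgeR adjusted p = 0.817, 95% interval -0.79 to 0.19). It was -0.14 without vehicle 1, -0.47 without vehicle 2 and -0.44 without CNO 2.

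*Erbb2* encodes the receptor for which no direct ligand is known and which serves as a partner of the others. It had 0.952, 1.61, 1.11 and 0.756 TPM with CNO and 1.82, 1.39, 0.993 and 1.17 with vehicle. The highest samples were vehicle 1 and CNO 2, and the groups overlapped. The log2 fold change was -0.22 (SE 0.23, edgeR adjusted p = 0.822, 95% interval -0.74 to 0.30). Without vehicle 1 it was -0.07 and without CNO 2 it was -0.41. *Erbb2* rested on 86 to 168 reads per sample.

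*Egfr* encodes the receptor of EGF and transforming growth factor alpha. It had 1.16, 1.34, 1.18 and 1.44 TPM with CNO and 1.64, 1.83, 1.49 and 1.92 with vehicle. The 2 groups did not overlap in TPM, the mean being 1.28 ± 0.136 with CNO and 1.72 ± 0.195 with vehicle (SD, n = 4). A two-sided exact permutation test on log2(TPM + 0.1) gave p = 0.0286, the smallest that 4 against 4 samples allow and 1 of 8 such tests. Across all genes limma on log2(TPM + 1) gave a log2 fold change of -0.25 with an unadjusted p of 0.0387 and an adjusted p of 0.749. In CPM the groups did overlap, with 3.03, 4.10, 3.79 and 4.25 for CNO and 3.56, 3.67, 4.42 and 5.67 for vehicle. The fitted log2 fold change was -0.19 (SE 0.19, edgeR adjusted p = 0.818, 95% interval -0.61 to 0.22). It was -0.03 without vehicle 4 and -0.28 without vehicle 1.

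**Figure D2:**
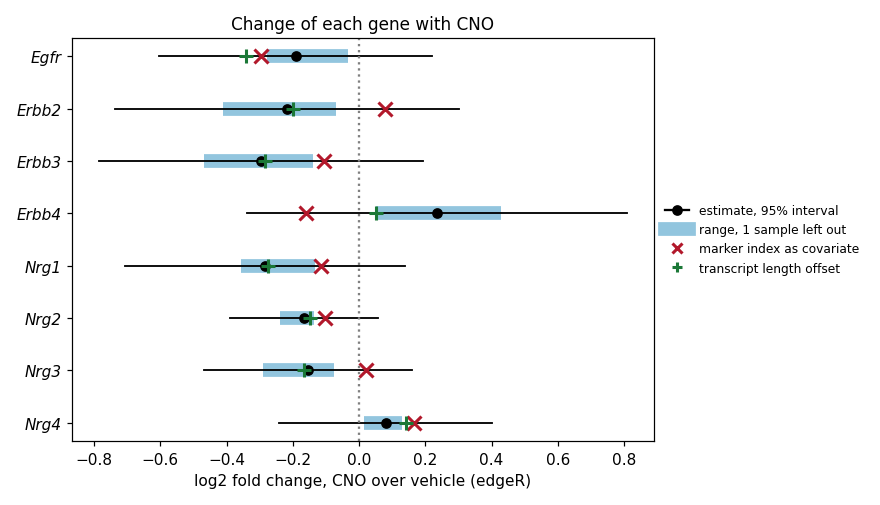
Log2 fold change of each gene, CNO over vehicle (x axis), from edgeR with its 95% interval, the range with 1 sample left out, and the values with the marker index as a covariate or with a transcript length offset. Every interval spans 0, and with the marker index as a covariate Erbb2, Erbb4 and Nrg3 lie on the other side of 0.

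For *Egfr* and *Erbb4* the transcript length by which the counts had been divided to give TPM was not the same in all samples, so that their TPM and CPM diverged. This length is the count over the TPM, taken relative to the gene's geometric mean over the 8 samples after the samples were brought to the same median of such ratios over genes. It ranged over 1.56-fold for *Egfr*, at least as wide as for 95.4% of the 16173 tested genes with 10 or more reads in every sample. For *Erbb4* it ranged over 1.498-fold, at least as wide as for 94.4%, beside a median of 1.06-fold over those genes. For *Egfr* the implied length was 0.928, 1.18, 1.15 and 1.01 in CNO samples 1 to 4 and 0.869, 0.753, 1.07 and 1.12 in vehicle samples 1 to 4. For *Erbb4* it was 0.778 in vehicle 1 and between 0.930 and 1.17 in the other 7 samples. The other 6 genes ranged over 1.01-fold (*Nrg1*, *Erbb3* and *Erbb2*) to 1.12-fold (*Nrg4*). With an offset for this length the log2 fold change was -0.34 for *Egfr* (edgeR unadjusted p = 0.0529, adjusted p = 0.812) and 0.05 for *Erbb4*. Which transcripts of *Egfr* or *Erbb4* made up these estimates was not analysed here.

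**Figure D3:**
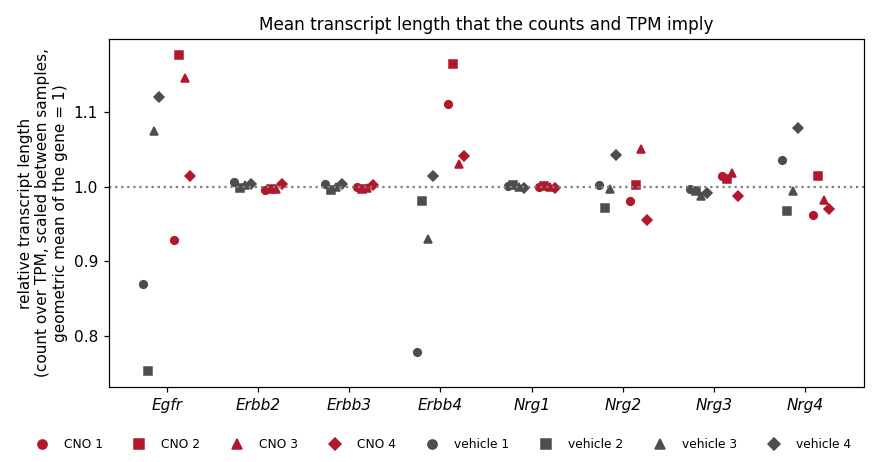
Transcript length implied by the count and the TPM of each gene in each sample, scaled between samples and relative to the gene's geometric mean of 1 (y axis, not from 0). Egfr and Erbb4 spread over 1.56-fold and 1.498-fold, and Erbb2, Erbb3 and Nrg1 hardly vary.

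*Nrg3*, the neuregulin with the most RNA, which acts on ErbB4, had 30.6, 41.9, 26.6 and 25.2 TPM with CNO and 44.9, 37.6, 30.9 and 33.8 with vehicle. CNO 2 and vehicle 1 were the 2 highest samples and the groups overlapped. The log2 fold change was -0.15 (SE 0.14, edgeR adjusted p = 0.817, 95% interval -0.47 to 0.16). Without CNO 2 it was -0.29 (edgeR unadjusted p = 0.0363, adjusted p = 0.472), and without vehicle 1 it was -0.07 (edgeR adjusted p = 0.9998).

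*Nrg2* had 10.7, 13.1, 9.42 and 9.96 TPM with CNO and 13.9, 13.1, 11.3 and 12.3 with vehicle. CNO samples 1, 3 and 4 lay below all 4 vehicle samples, and CNO 2 lay among them. The log2 fold change was -0.17 (SE 0.10, edgeR adjusted p = 0.817), with the narrowest interval of the 8 genes, -0.39 to 0.06. Without CNO 2 it was -0.24 (edgeR unadjusted p = 0.0315, adjusted p = 0.472) and without vehicle 1 it was -0.15.

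*Nrg1*, the neuregulin with the most annotated transcripts, had 5.14, 5.61, 4.88 and 2.83 TPM with CNO and 7.15, 5.63, 5.42 and 5.33 with vehicle. CNO 4 was lowest, with 127 reads beside 209 to 261 in the other 7 samples, and vehicle 1 was highest. The log2 fold change was -0.28 (SE 0.19, edgeR adjusted p = 0.817, 95% interval -0.71 to 0.14). It was -0.13 without CNO 4 and -0.21 without vehicle 1. *Nrg4* had 4.83, 5.94, 4.54 and 4.89 TPM with CNO and 5.57, 4.98, 4.32 and 4.54 with vehicle, the 2 ranges almost coinciding. Its log2 fold change was 0.08 (SE 0.15, edgeR adjusted p = 0.885, 95% interval -0.24 to 0.40), and it was 0.13 without vehicle 1 and 0.01 without CNO 2. Two-sided exact permutation tests on log2 CPM gave p between 0.0857 (*Nrg1*) and 0.486 (*Erbb4*) over the 8 genes.

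Shares within a sample were compared as well, since they do not depend on scaling between samples. *Nrg4* made up 9.42, 8.93, 9.99 and 11.4% of the neuregulin TPM in CNO samples 1 to 4 and 7.80, 8.12, 8.31 and 8.12% in vehicle samples 1 to 4. The groups did not overlap, and the mean was 9.93 ± 1.07% with CNO and 8.09 ± 0.213% with vehicle (SD, n = 4, two-sided exact permutation test p = 0.0286, adjusted over the 8 shares p = 0.229), so the difference did not pass adjustment. From CPM in place of TPM the difference was 0.799 percentage points (exact permutation p = 0.0286) in place of 1.85. *Nrg4* itself was not higher beyond its spread (above), and *Nrg1*, *Nrg2* and *Nrg3* had lower mean TPM with CNO. *Nrg3* made up 60.0 ± 2.01% with CNO and 61.0 ± 1.42% with vehicle (SD, n = 4, exact p = 0.429). *Erbb4* made up 81.5 ± 8.99% and 79.0 ± 5.75% of the receptor TPM (SD, n = 4, exact p = 0.571). The exact p of the other 5 shares lay between 0.314 (*Egfr*) and 1 (*Nrg2*), and the adjusted p of all but *Nrg4* between 0.762 and 1. The 4 receptors together had 16.9 to 28.4 TPM with CNO and 22.6 to 29.6 with vehicle, and the 4 neuregulins 42.9 to 66.6 and 52.0 to 71.5.

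The levels of 4 members followed the marker index from sample to sample. The share of all genes tested that did so was not counted, so this was not shown to be particular to the members. *Erbb4* was higher in samples with a higher marker index (Pearson r = 0.891, exact permutation p = 0.000372, adjusted p = 0.00149; Spearman rho = 0.905, adjusted p = 0.00913, n = 8 samples, 8 relations), and r was 0.889 without the 2 samples farthest from the median index, vehicle 1 and CNO 4. *Erbb2* ran the other way (r = -0.919, exact permutation adjusted p = 0.000397; rho = -0.976, adjusted p = 0.00317), with r = -0.983 without those 2 samples. The same direction held for *Nrg3* (r = -0.850, exact permutation adjusted p = 0.00311; rho = -0.905, adjusted p = 0.00913; -0.829 without the 2) and *Nrg2* (r = -0.745, exact permutation adjusted p = 0.0265; rho = -0.929, adjusted p = 0.00893; -0.741 without the 2).
For *Nrg1* (r = -0.755, rho = -0.690) and *Erbb3* (r = -0.644, rho = -0.690) the exact permutation adjusted p of r was 0.1203 and 0.118, and both had an adjusted p of rho of 0.0925. *Nrg1* had r = -0.786 without vehicle 1 and -0.294 once CNO 4 was left out as well. *Erbb3* had r = -0.273 without vehicle 1 and -0.233 without both. *Nrg4* (r = -0.430, rho = -0.357) and *Egfr* (r = 0.200, rho = 0.190) had exact permutation adjusted p of r of 0.328 and 0.600 and of rho of 0.445 and 0.665. Without vehicle 1 and CNO 4, r was -0.675 for *Nrg4* and -0.186 for *Egfr*. After each group's mean was subtracted from both measures, r was 0.903 for *Erbb4*, -0.912 for *Erbb2*, -0.821 for *Nrg3*, -0.652 for *Nrg2*, -0.676 for *Nrg1*, -0.711 for *Nrg4*, -0.564 for *Erbb3* and 0.451 for *Egfr*. All points share the composition of a library, which both measures read.

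**Figure D4:**
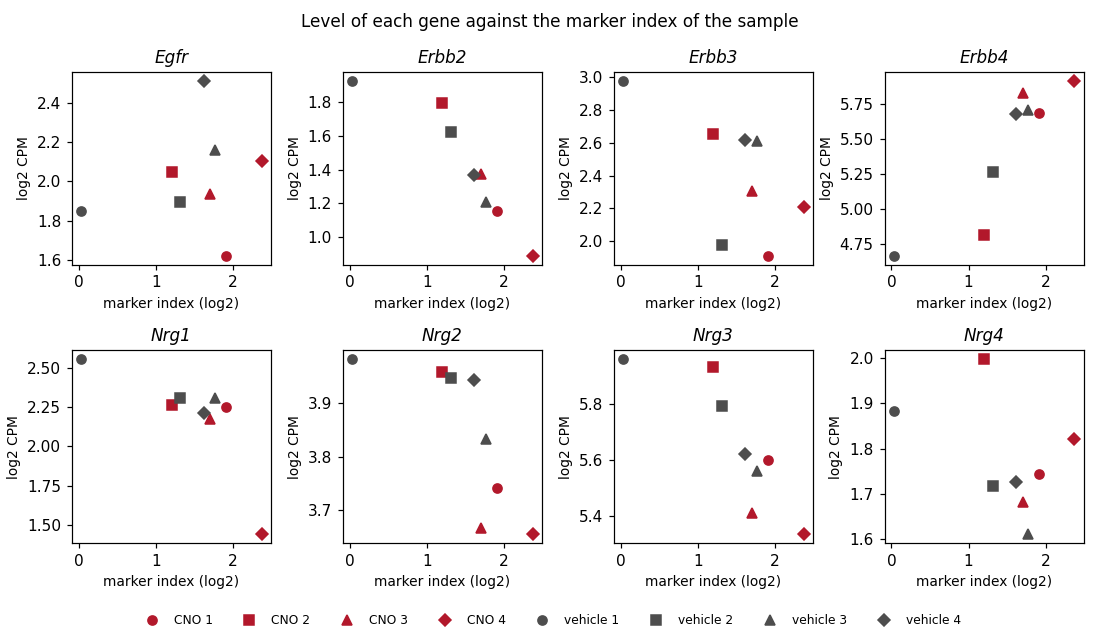
Log2 CPM of each gene (y axis, own scale per panel) against the marker index (x axis), 1 point per sample. Erbb4 rises with the index (r = 0.891) and Erbb2 (r = -0.919) and Nrg3 (r = -0.850) fall with it, in samples of both groups.

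*Erbb4* and *Nrg3*, a receptor and its ligand, ran in opposite directions from sample to sample. Both also followed the marker index (r = 0.891 and -0.850), and their relation apart from it was not tested. How many pairs among all genes tested ran as closely was not counted. Among the 28 pairs of members, *Erbb4* and *Nrg3* had the strongest relation (r = -0.958, exact permutation p = 2.48e-05, the smallest that 8 samples allow, adjusted p = 0.000694; rho = -1, adjusted p = 0.00139), with r = -0.944 without vehicle 1 and CNO 2. *Erbb2* and *Erbb4* had r = -0.923 (exact permutation adjusted p = 0.0115; rho = -0.833, adjusted p = 0.0615) and -0.890 without CNO 4 and vehicle 1. *Erbb2* and *Nrg3* had r = 0.911 (exact permutation adjusted p = 0.0238; rho = 0.833, adjusted p = 0.0615) and 0.795 without the same 2 samples. *Nrg2* and *Nrg3* had r = 0.896 (exact permutation adjusted p = 0.0238; rho = 0.976, adjusted p = 0.00370) and 0.740 without CNO 3 and CNO 4. By Pearson's r 6 of the 28 pairs had an adjusted p under 0.05, the other two being *Nrg1* with *Nrg2* (r = 0.680, rho = 0.833) and *Nrg1* with *Nrg3* (r = 0.728, rho = 0.786), both with an exact permutation adjusted p of 0.0271 for r and with r of 0.497 and 0.529 without CNO 4 and vehicle 1. By Spearman's rho 3 pairs did, the third being *Erbb4* with *Nrg2* (rho = -0.976, exact permutation adjusted p = 0.00370, beside r = -0.792, adjusted p = 0.0644).

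Taking the marker index as a covariate turned the sign of 3 fitted changes, giving -0.16 for *Erbb4*, 0.08 for *Erbb2* and 0.02 for *Nrg3*, with an edgeR adjusted p of 0.9995 for all 3. It gave -0.10 for *Erbb3*, -0.11 for *Nrg1* and -0.10 for *Nrg2*, closer to 0 than without it, and -0.30 for *Egfr* and 0.17 for *Nrg4*, farther from 0. The PV+ interneuron markers summed to 4711 to 7397 TPM with CNO and to 2352 to 5772 with vehicle, and all 12 were fitted higher with CNO (median log2 fold change 0.41, 0 called). The pyramidal cell markers summed to 1425 to 1971 TPM and to 1613 to 2304, and 11 of 12 were fitted lower with CNO (median -0.14, 0 called). *Slc17a7*, the vesicular glutamate transporter of these cells, was between 331 and 493 TPM with CNO and between 436 and 547 with vehicle. Oligodendrocyte markers summed to 591 to 1060 TPM with CNO and to 814 to 1044 with vehicle, with 10 of 10 fitted lower (median -0.23), oligodendrocyte precursor markers to 60.6 to 88.6 and to 82.9 to 106 TPM, with 6 of 6 lower (median -0.19), and microglia markers to 58.8 to 96.2 and to 77.1 to 110 TPM, with 8 of 8 lower (median -0.21). Astrocyte markers summed to 530 to 629 and to 553 to 705 TPM (8 of 10 lower, median -0.15), markers of other interneurons to 615 to 715 and to 707 to 823 (8 of 12 lower, median -0.08) and blood vessel markers to 33.3 to 94.2 and to 54.1 to 74.6 (1 of 8 lower, median 0.29). None of these lists held a called gene, and their part in the members' values was not tested beyond the covariate.

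By likeness of log2 CPM over the 8 samples, the tested genes above 1 TPM nearest to *Erbb4* were *Otud5* (r = 0.991), *Rdx* (0.990) and *Kbtbd11* (0.989). Nearest to *Nrg3* were *Zfp282* (r = 0.999), *Lingo2* (0.985) and *Astn2* (0.983), and nearest to *Erbb2* were *Gm26703* (r = 0.987), *Sdk2* (0.986) and *Cep295* (0.979). For *Nrg1* they were *Atp8b1* (r = 0.992), *Bank1* (0.991) and *5830415F09Rik* (0.980), and for *Nrg2* *Ctso* (r = 0.970), *Adgrl3* (0.960) and *Rfx3* (0.958). For *Erbb3* they included *Disp1* (r = 0.962) and *Zbtb38* (0.958), and they were for *Egfr* *Gpm6a* (r = 0.961), *Baiap3* (0.958) and *Bap1* (0.947), and for *Nrg4* *Socs3* (r = 0.949), *Nprl3* (0.913) and *Cbfa2t3* (0.902). All were among the 3 highest of 15173 genes for their member, so these values describe the 8 libraries and carry no test.

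The other ligands of the family were measured beside the neuregulins. Of 7 listed, 4 passed the filter, and *Areg*, *Ereg* and *Epgn* did not, *Ereg* being listed at 0 TPM in every sample. *Tgfa*, which encodes transforming growth factor alpha, a ligand of *Egfr*, had 5.51, 8.41, 7.62 and 7.43 CPM with CNO and 11, 8.43, 8.99 and 10.7 with vehicle. All CNO samples lay below all vehicle samples, by the smallest margin between CNO 2 and vehicle 2, and in TPM that pair was in the other order (6.08 and 6.05). The log2 fold change was -0.43 (SE 0.15, edgeR unadjusted p = 0.0164, adjusted p = 0.817).
*Egf* had 3.77, 3.89, 3.45 and 2.88 CPM with CNO and 5.93, 4.33, 4.57 and 4.197 with vehicle, again without overlap. In TPM CNO 2 (2.92) lay above vehicle 2 (2.79) and vehicle 4 (2.90). Its log2 fold change was -0.44 (SE 0.17, edgeR unadjusted p = 0.0220, adjusted p = 0.817). Both genes thus had an unadjusted p under 0.05, beside 4.09% of all genes, and neither was called. *Hbegf*, the ligand with the highest TPM of the list (6.46 ± 0.583 with CNO and 6.40 ± 0.521 with vehicle, SD, n = 4), had a log2 fold change of 0.08 (SE 0.13). The fourth, *Btc*, had 1 to 27 reads per sample. The median over the 4 was -0.29.

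Proteases and other genes that release ligands and receptors from the membrane were evenly split. Of 14 tested, 8 were fitted higher and 6 lower with CNO, 0 were called and 0 had an unadjusted p under 0.05 (median log2 fold change 0.04, between -0.13 for *Adam19* and 0.23 for *Psenen*). *Adam10* had 15.4 ± 2.49 TPM with CNO and 17.7 ± 0.938 with vehicle, and *Adam17*, which cuts many EGF family ligands, 7.35 ± 1.05 and 8.55 ± 0.915. *Bace1*, a protease that cuts *Nrg1*, had 45.7 ± 2.88 and 43.0 ± 4.34 TPM (all SD, n = 4). *Psenen*, a subunit of gamma-secretase, had the highest TPM of the list at 132 over the 8 samples.

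The scaffolds and adaptors that carry the signal from the receptors were 23 genes, of which 11 were fitted higher and 12 lower, with 0 called and 0 at an unadjusted p under 0.05 (median -0.03). *Gab1* had the lowest value (log2 fold change -0.28, SE 0.16, edgeR unadjusted p = 0.103) and *Gab2* the highest (0.17, SE 0.15). *Dlg4*, which encodes the postsynaptic scaffold PSD-95, a binding partner of ErbB4, had 12.9 ± 3.10 TPM with CNO and 13.0 ± 2.35 with vehicle (SD, n = 4), and *Erbin*, named for its binding of ErbB2, 14.4 ± 2.04 and 15.5 ± 3.59. *Pik3r2* had the highest TPM, 141 over the 8 samples.

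Of the 15 genes that inhibit the receptors or direct their breakdown, 10 were fitted higher and 5 lower, with 0 called and 0 at an unadjusted p under 0.05 (median 0.05). *Errfi1*, which encodes a cytoplasmic inhibitor of ErbB kinases, had 29.5, 27.2, 27.3 and 32.5 CPM with CNO and 24.3, 26.7, 26.5 and 26.2 with vehicle. Its groups did not overlap in CPM, and its log2 fold change was 0.17 (SE 0.09, edgeR unadjusted p = 0.0927). In TPM they did overlap (25.7 ± 1.61 and 25.2 ± 2.16, SD, n = 4). *Rnf41*, the ligase Nrdp1 that acts on ErbB3, had a log2 fold change of 0.16 (SE 0.14), *Lrig1* -0.08 (SE 0.12), *Lrig3*, the lowest, -0.14 and *Socs5*, the highest, 0.21. *Stub1* had the highest TPM, 246 over the 8 samples.

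The downstream chains had medians near 0. In the Ras MAP kinase chain 6 of 11 genes were fitted higher and 5 lower (median 0.02, the lowest being -0.13 for *Nras*, and *Araf* having the highest TPM, 453). In the PI3 kinase and AKT chain 8 of 14 were fitted higher and 6 lower (median 0.01, between -0.18 for *Akt2* and 0.23 for *Akt1*, *Rheb* having the highest TPM, 287). In both lists 0 genes were called and 0 had an unadjusted p under 0.05.

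**Figure D5:**
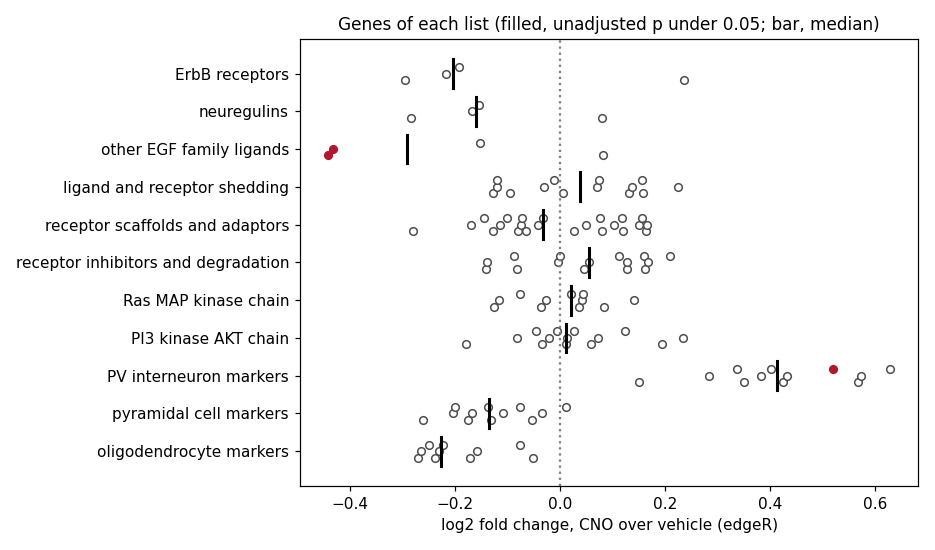
Log2 fold change of each tested gene, CNO over vehicle (x axis), by list, with the median of each list as a bar and filled points at an unadjusted p under 0.05. Of the pathway lists only the other EGF family ligands hold filled points, 2 of 4, and no gene of any list was called after adjustment.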

How the data were processed

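Ribosome-associated RNA was sequenced in 8 samples, 4 CNO and 4 vehicle. Per the labels and the methods, the authors trimmed paired-end reads with Trim Galore, aligned them to GRCm38 with STAR and deposited estimated counts per gene from Salmon and tximport, not normalised. The authors also deposited TPM, those counts per transcript length scaled to a common sum. The tools ran within a Nextflow pipeline. Library strandedness and the versions of Trim Galore, STAR, Salmon and tximport were not given in the sources used here.

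The counts, rounded, were analysed in R 4.3.3. A gene was dropped when 4 or more samples had under 10 reads. The groups were compared by edgeR 4.0.16 (quasi-likelihood test) with TMM normalisation and Benjamini-Hochberg adjustment, called at an adjusted p under 0.05. The test was run on simulated data first, and the outcome of that run is not given here. Log2 CPM used a prior count of 2, CPM were scaled by TMM except in the depth limit, and TPM was compared on log2(TPM + 0.1). Depth was 44064161 to 49413273 reads per sample. Levels, shares and correlations were tested by exact permutation over samples. Alternatives used the likelihood ratio test, DESeq2 1.42.0, limma 3.58.1 on log2 TPM, other size factors, no filter, covariates and left-out samples. Added after seeing the data were a transcript length offset and the joint exclusion of vehicle 1 and CNO 2.

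The members and gene lists were chosen with earlier results of these data known. Genes named are the members, from each list of the pathway those with the highest TPM, highest and lowest fold change, a fixed set of partners and ligands, and the 3 genes most like each member. *Btc* and the overlapping genes are named besides, and 2 genes under this rule are not reported here. *Erbin* was matched to the older symbol Erbb2ip. Python 3.11.15 with matplotlib 3.10.9 drew the plots.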

Additional observations from a re-analysis of the deposited data

Results flagged for a closer look

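Of 50 groups of 4 samples tested for a sample far from the rest by Dixon's ratio, 3 exceeded its 95% critical value, where chance gives 2.5. All 3 are in the CNO group, and 2 of them are shares of the same receptor sum in CNO 2, so they are not independent. In CNO 2, *Erbb3* made up 14.4% of the receptor TPM, against 5.59 to 6.23% in the other 3 CNO samples (gap over range 0.927). In the same sample *Erbb4* made up 68.0%, against 85.5 to 86.7% (0.938), and both shares of CNO 2 resembled those of vehicle 1 (13.9% and 70.8%). These samples had the 2 lowest marker indices. In CNO 4, the sample with the highest marker index, *Nrg1* was at a log2 CPM of 1.44, against 2.18 to 2.26 (0.895). The part of the marker index in these values was not tested.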

How the results depend on the processing

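Under 20 alternatives for each gene, 155 of 160 fitted log2 fold changes of the 8 members kept their sign, 6 had an unadjusted p under 0.05 and 0 were called. Those that changed sign were *Erbb4* with limma on log2(TPM + 1) (-0.0693) and on log2(TPM + 0.1) (-0.0747), and *Erbb4* (-0.16), *Erbb2* (0.0783) and *Nrg3* (0.0195) with the marker index as a covariate. The cause was not tested. The 6 were *Egfr* with limma on log2(TPM + 1), *Erbb3* without vehicle 2, and *Nrg2* and *Nrg3* without CNO 2 and without both CNO 2 and vehicle 1 (-0.24 and -0.23). Over all genes the count called was 15 by the likelihood ratio test with robust dispersion (12 higher, 3 lower), 11 by DESeq2 (10 higher, 1 lower), 4 with no filter on low counts, 3 with replicates 1 and 2 against 3 and 4 as a term, and 0 to 2 with 1 sample left out, the 2 without CNO 1. The 1.5-fold and TPM cut-offs were applied only to the quasi-likelihood test, which had called 0 genes, so they could leave only 0. With the replicate number as a replicate block 0 genes were called, and the log2 fold change was 0.23 for *Erbb4* and -0.17 for *Nrg3*. Deviations of samples with the same number correlated at 0.03, -0.03, 0.16 and 0.24 (numbers 1 to 4), so the numbers were not taken to pair the samples, and not every sample correlated best with its own number. Leaving out 1 sample at a time, the step from *Erbb4* down to *Nrg2* ran from 0.68 to 0.90 and lost its call in 5 of 8 runs. *Nrg1* over *Nrg4* ran from 0.00893 to 0.17, called without CNO 4, and *Erbb3* over *Egfr* from 0.31 to 0.48, called without vehicle 2. The difference in share, CNO minus vehicle in percentage points, ran from -1.85 to 0.55 for *Erbb2*, -3.14 to 0.67 for *Erbb3*, -0.19 to 6.999 for *Erbb4*, -0.69 to 0.48 for *Nrg2* and 1.36 to 2.18 for *Nrg4*, whose exact p was 0.0571 without any 1 vehicle sample. With CPM in place of TPM it was -0.12 for *Nrg2*, 5.35 in place of 2.51 for *Erbb4*, -2.81 in place of -0.98 for *Erbb3*, -1.19 in place of -0.34 for *Erbb2*, -0.10 in place of -1.01 for *Nrg3* and 0.80 in place of 1.85 for *Nrg4*. The 95% intervals given were not adjusted over genes. They hold the changes that these values leave possible and are not a limit of detection.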
